A study of Mus musculus with 6 samples.

Results

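The region described here is the stretch of mouse chromosome 1 from 143950000 to 144400000 (mm10) around Rgs2, Rgs13 and Rgs1, 3 neighbouring genes for regulators of G protein signalling. Its members are the rows of the authors' deposited table that overlap it, 49 of 34518 listed noncoding features. Of these, 45 lie in a block from 144077763 to 144278803, which was chosen by the fold changes and calls of the comparison reported below, and 4 lie in its flanks, 1 to the left and 3 to the right. The fold changes of the block are therefore given as a description and support nothing by themselves.

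RGS proteins bind active G protein alpha subunits and speed the hydrolysis of their GTP, which shortens the signal of G protein-coupled receptors. RGS2 acts preferentially on the Gq class, is expressed in heart and vascular smooth muscle, and is known for limiting the response to vasoconstrictors. RGS1 and RGS13 are known mainly from lymphocytes, where they dampen chemokine receptor signalling, and RGS13 also from mast cells.

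The tissue was the left atrium of adult mice of the outbred CD1 stock. In the FOG2_OE group the animals overexpressed FOG2, the product of Zfpm2, a protein that binds GATA factors and modifies their activity, and the other group was wild type (WT), with 3 libraries each. All animals had been reared without doxycycline for 1 week before the hearts were taken. The labels call the animals DTG and NTG without spelling these out, and the promoter that drives the transgene is not given in the sources used here. RNA was depleted of ribosomal and polyadenylated RNA before sequencing, which is meant to leave mainly transcripts without a poly(A) tail. The completeness of this depletion was not tested.

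Effective library sizes implied by the table ran from 71100723 to 84811961 reads. The table's 6 sample columns are fitted values of the authors' model. Within a group they differ only by library size, so that no spread between replicates can be read from them, and whether the groups overlap sample by sample cannot be seen. Levels are given below as CPM, the fitted count scaled to the effective library size, with 1 value per group. Fold changes and adjusted p are those of the authors' comparison, and each standard error (SE) was solved from its likelihood ratio. Nothing in the sources says which animals the libraries came from, so that the p-values measure only the spread between these libraries, which may be technical. As a check of the labels, the strongest Zfpm2 feature, MSTRG.29831, stood at 417 CPM in FOG2_OE and 0.484 CPM in WT. It is listed on the minus strand of chromosome 15, from 40752896 to 41103616. In bulk tissue, fewer cells of a type and less RNA per cell cannot be told apart. Features overlapped 7 of 9 atrial muscle markers (79.8 CPM in FOG2_OE and 105 CPM in WT in sum; Myh6 and Nppa had no listed feature). They overlapped 1 of 7 B cell markers (Cd79a, 0.292 and 0.426 CPM), 0 of 7 T and NK cell markers, 0 of 4 mast cell markers and 2 of 6 myeloid markers (Cd68 at 0.0471 and 0.0926 CPM, Mrc1 at 0.0883 and 0.0438 CPM). For 3 of 4 fibroblast markers the sums were 3.14 and 1.93 CPM, and for 4 of 4 endothelial markers 1.42 and 1.12 CPM. Both lists went both ways: levels of Col1a1, Col3a1, Pecam1 and Cdh5 were higher in FOG2_OE, and those of Dcn, Kdr and Tek were lower. Of the 2 smooth muscle markers, Acta2 had 1 feature, called higher, at 0.222 and 0.00434 CPM. Its WT level is under the 0.0127 CPM to which 3 counts over the FOG2_OE group amount. No B cell, myeloid, fibroblast or endothelial marker feature was called. Atrial markers also went both ways. Of their 122 features, 4 were called lower and 2 higher, against 4.65% lower and 1.16% higher of all features. Levels of Ttn (51.6 and 65.3 CPM), Ryr2 (11.6 and 19.3 CPM), Sln (2.92 and 5.98 CPM) and Myl7 (0.790 and 1.99 CPM) were lower in FOG2_OE, as was Tnnt2 (8.02 and 8.10 CPM). Those of Actc1 (1.93 and 1.82 CPM) and Myl4 (2.94 and 2.60 CPM) were higher. The table lists noncoding features, so that a marker without one is not shown to be absent from the tissue. The part of these cell types in the results below was not tested.

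The 3 genes are all annotated on the minus strand. In GENCODE M21, Rgs2 covers 143999338 to 144004161, Rgs13 covers 144138654 to 144177372 and Rgs1 covers 144242296 to 144249242. Rgs2 lies outside the block, whose left edge is 73.6 kb upstream of the Rgs2 start, and Rgs13 and Rgs1 lie inside it. No listed feature overlaps Rgs2 or Rgs1. All 16 features that overlap 1 of the 3 genes overlap Rgs13, so that the data describe the stretch of Rgs13, the intergenic DNA around it and 1 feature beside Rgs2. These 16 are listed on the strand opposite to Rgs13 and 13 of them overlap no exon, so that expression of Rgs13 is not read from them. For Rgs2 and Rgs1 the data hold no reading of the gene itself.

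The promoter windows of Rgs2 and Rgs13 are shown because the listed feature nearest to the gene's start was not called at Rgs2 and was called lower at Rgs13. Both come from RefSeq (GRCm38.p6), run from 250 bases before to 50 after the start, and are written 5′ to 3′ on the gene's strand, chr1:144004100-144004399 (minus) and chr1:144177323-144177622 (minus). No window was available for Rgs1, whose nearest listed feature, MSTRG.4459 at 29.4 kb from its start, was also called lower. Capitals mark the GATA core on either strand, searched as AGATAA or AGATAG, and as TGATAA or TGATAG.
Rgs2: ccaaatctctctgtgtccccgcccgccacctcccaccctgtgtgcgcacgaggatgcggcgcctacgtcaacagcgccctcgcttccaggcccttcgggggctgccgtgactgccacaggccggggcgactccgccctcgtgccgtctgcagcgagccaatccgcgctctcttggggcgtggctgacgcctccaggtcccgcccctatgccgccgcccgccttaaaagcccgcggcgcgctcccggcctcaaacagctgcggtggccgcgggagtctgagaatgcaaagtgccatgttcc
Rgs13: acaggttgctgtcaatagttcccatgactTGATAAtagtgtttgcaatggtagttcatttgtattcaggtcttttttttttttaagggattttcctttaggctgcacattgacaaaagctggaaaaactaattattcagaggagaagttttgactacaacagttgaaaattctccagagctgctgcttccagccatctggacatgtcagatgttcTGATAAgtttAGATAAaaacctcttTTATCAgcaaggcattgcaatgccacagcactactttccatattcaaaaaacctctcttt

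The Rgs2 window held 33 CpG dinucleotides at a GC content of 70.0%, and the Rgs13 window held 0 at 36.7%. Among 32544 distinct promoter windows of the same length, the medians were 7 CpG and a GC content of 53.0%. The Rgs13 window held 4 GATA matches, which do not overlap each other, and the Rgs2 window held 0. At least 1 match stood in 29.6% of the 32544 windows and at least 4 in 0.310%. The T-box letters AGGTGT, on either strand, were in neither window and in 13.8% of all. All but 1 of the Rgs13 matches lie within 35 bases upstream of the start. These are letter matches in AT-rich DNA, and no binding was measured in the libraries used here.

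Beside Rgs2 the single listed feature was not called. MSTRG.4418 (144004486 to 144004947, listed on the plus strand) begins 325 bases upstream of the annotated Rgs2 start and is listed in the direction away from the gene. FOG2_OE had a fitted level of 0.212 CPM there and WT one of 0.184 CPM. The authors' deposited table gives a log2 fold change of 0.20 (SE 0.63, 95% interval -1.02 to 1.43) and, from the likelihood ratio test, an adjusted p of 0.917. At this depth, with 42.5 fitted reads over the 3 WT libraries, a change of 2-fold in either direction lay inside the interval.

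From 73.6 kb beyond the Rgs2 start onward, every listed feature of the block was lower in FOG2_OE. The log2 fold changes of all 45 were negative, from -6.22 to -1.81 with a median of -3.79 by the authors' deposited table. The 6 lowest belong to features at 0 in FOG2_OE, where the size of the fold change is not fixed by the counts. The lowest, of MSTRG.4513, had an SE of 2.52. With 3 counts over the FOG2_OE group as the floor, this feature was at least 9.27-fold lower. The median of all 34518 features was -0.21, and 60.6% of them were under 0. Of the 45, 38 were called lower and 0 higher at an adjusted p under 0.05 by the authors' deposited table, or 84.4%. Over all features 4.65% were called lower and 1.16% higher. Since the block was cut from these calls, nothing is read from the difference between those shares. Summed over the block, fitted levels came to 1.51 CPM for FOG2_OE and 19.0 CPM for WT, a ratio of 12.6. The flanks summed to 0.266 and 0.366 CPM, and they differed from each other. The left flank, MSTRG.4418 alone, stood at 0.212 and 0.184 CPM. The right flank stood at 0.0546 and 0.183 CPM, a log2 ratio of -1.74 (95% counting interval -2.75 to -0.80).

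The number of block features called lower depended on the rule for a call, and 0 were called higher under each. At an adjusted p under 0.01 it was 29, against 2.69% of all features lower and 0.608% higher. With the median ratio of all features centred at 1 it was 37, against 3.47% lower and 1.62% higher. With an F reference distribution of 10 residual degrees of freedom, which allows for uncertainty of the spread, it was 12, against 1.07% lower and 0.203% higher. With 4 residual degrees of freedom it was 0, as over all features. By that rule 39 block features were lower at an unadjusted p under 0.05, against 1927 lower and 529 higher of all 34518. Of the 21 block features with a mean of at least 10 fitted reads, all were called when only such features were tested, against 6.91% lower and 1.72% higher.

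**Figure D1:**
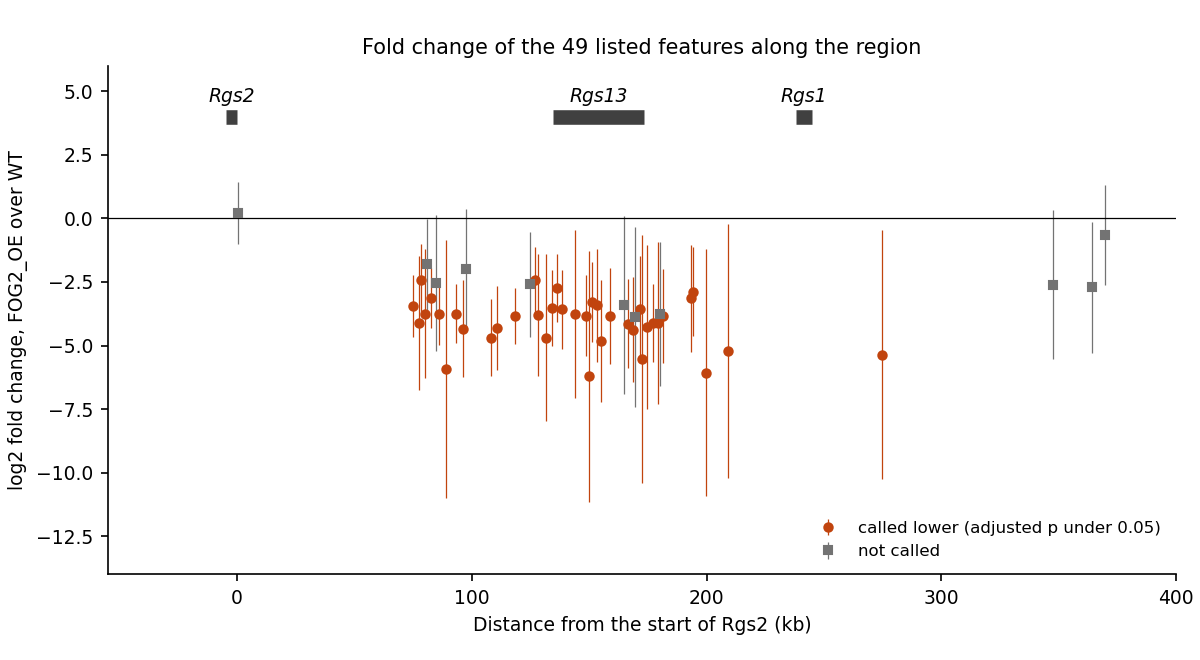
log2 fold change (FOG2_OE over WT, authors' deposited table) of each of the 49 listed features against its distance from the start of Rgs2 in kb; vertical lines are 95% intervals from the solved SE, and grey bars at the top are the 3 annotated genes. The 38 called features are all in the block, at log2 fold changes of -6.22 to -2.41, and the single feature beside Rgs2 stands at 0.20. The 6 lowest are features at 0 in FOG2_OE, where the size of the fold change is not fixed by the counts.

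The first part of the block lies between Rgs2 and Rgs13, and its listed features overlap no annotated gene. It held 19 features, 15 of them called lower by the authors' deposited table, and its levels summed to 1.03 CPM for FOG2_OE and 12.8 CPM for WT. MSTRG.4446 (144117427 to 144127495), the longest listed feature of the region at 10069 bases, carried 27.3% of the block's WT level. Its fitted reads per library were 29.2, 26.5 and 31.1 in FOG2_OE replicates 1 to 3 and 370, 408 and 428 in WT replicates 1 to 3. These follow the library sizes, so that their closeness within a group is no measure of replicate error. MSTRG.4446 fell from 5.21 to 0.367 CPM, with a log2 fold change of -3.82 (SE 0.56) and an adjusted p of 9.7e-08 by the authors' deposited table. That was the smallest adjusted p of the region. Ranked by p, it was number 158 among all features of the table with a log2 fold change under 0.

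Several neighbours of MSTRG.4446 had fold changes of like size. MSTRG.4438 (144095721 to 144099439) fell from 1.74 to 0.128 CPM, with a log2 fold change of -3.75 (SE 0.60) by the authors' deposited table. MSTRG.4434 (144089294 to 144091158) fell from 0.942 to 0.0683 CPM, a log2 fold change of -3.75 (SE 0.62) in that table of the authors. MSTRG.4439 (144111154 to 144113371) went from 0.907 to 0.0337 CPM, and its value of -4.69 (SE 0.78) by the authors' deposited table was the lowest among the 10 most abundant block features. MSTRG.4445, 0.6 kb further on, had -4.30 (SE 0.84) by the authors' deposited table. The smallest change among called features was that of MSTRG.4441 (144130528 to 144131621), which went from 0.453 to 0.0838 CPM with a log2 fold change of -2.41 (SE 0.65, adjusted p = 0.0068) by the authors' deposited table. MSTRG.4432, near the left edge, was close to it at -2.42 (SE 0.72) by the authors' deposited table.

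Over Rgs13, 16 features were listed on the strand opposite to the gene, and 14 of them were called lower by the authors' deposited table. Together they held 0.386 CPM for FOG2_OE and 4.67 CPM for WT, a ratio of 12.1 against 12.4 for the intergenic part before the gene. Of the 16, 13 lie in introns and 3 overlap annotated exons. MSTRG.4507 (144139266 to 144141699) overlaps an exon near the end of the gene and was the most abundant, at 0.148 CPM in FOG2_OE and 0.992 CPM in WT. Its log2 fold change was -2.73 (SE 0.68, adjusted p = 0.0044) by the authors' deposited table. MSTRG.4505 (144137516 to 144138994) spans the annotated end of Rgs13 and fell from 0.683 to 0.0577 CPM, with a log2 fold change of -3.53 (SE 0.76) by the authors' deposited table. The third feature over an exon, MSTRG.4524 (144175652 to 144176115), stood at 0.0125 and 0.165 CPM. Strand is not kept by the kit that the labels name, and antisense reads and reads of Rgs13 itself over these bases could not be told apart.

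MSTRG.4508 (144142007 to 144142947) fell from 0.421 to 0.0338 CPM, a log2 fold change of -3.58 (SE 0.80) by the authors' deposited table. MSTRG.4512 (144152333 to 144153378) fell from 0.443 to 0.0296 CPM, or -3.83 (SE 0.81) on the log2 scale of the authors' deposited table. MSTRG.4520 (144170085 to 144171018) fell from 0.320 to 0.0167 CPM, and its adjusted p of 6.5e-06 by the authors' deposited table was the smallest over the gene. Others among the introns were scarcer. MSTRG.4516 had 0.278 CPM in WT, and its ratio of 33.3 had a 95% counting interval of 8.70 to 276. MSTRG.4525 (144176394 to 144176565), 807 bases inside the gene from its start, stood at 0 in FOG2_OE and 0.0723 CPM in WT, at least 5.71-fold lower taking 3 counts over the FOG2_OE group as the floor. MSTRG.4513 also stood at 0 in FOG2_OE, at least 9.27-fold lower. MSTRG.4519 and MSTRG.4523 were not called, with log2 fold changes of -3.41 and -3.89 and adjusted p of 0.140 and 0.0813 by the authors' deposited table. The other called features over Rgs13 were MSTRG.4510, MSTRG.4514, MSTRG.4515, MSTRG.4517 and MSTRG.4522, at log2 fold changes of -4.38 to -3.28 by the authors' deposited table.

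Beyond the Rgs13 start, listed features became shorter and scarcer toward Rgs1. Between the 2 genes lay 9 features, 8 of them called lower by the authors' deposited table, with a sum of 0.0921 CPM for FOG2_OE and 1.51 CPM for WT. MSTRG.4460 (144180624 to 144181829) was the most abundant, at 0.0253 CPM for FOG2_OE and 0.460 CPM for WT, and its log2 fold change was -4.10 (SE 0.79, adjusted p = 1.0e-06) by the authors' deposited table. MSTRG.4456 and MSTRG.4455, the last before Rgs1, stood at 0 in FOG2_OE and at 0.106 and 0.0577 CPM in WT. Then followed 65.2 kb without a listed feature, an interval that contains Rgs1. The block ends with MSTRG.4459 (144278674 to 144278803), the listed feature nearest to the Rgs1 start at 29.4 kb. It stood at 0 in FOG2_OE and 0.0641 CPM in WT, at least 5.06-fold lower, and was called with an adjusted p of 0.0087 by the authors' deposited table. These data therefore hold no direct reading at Rgs1.

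**Figure D2:**
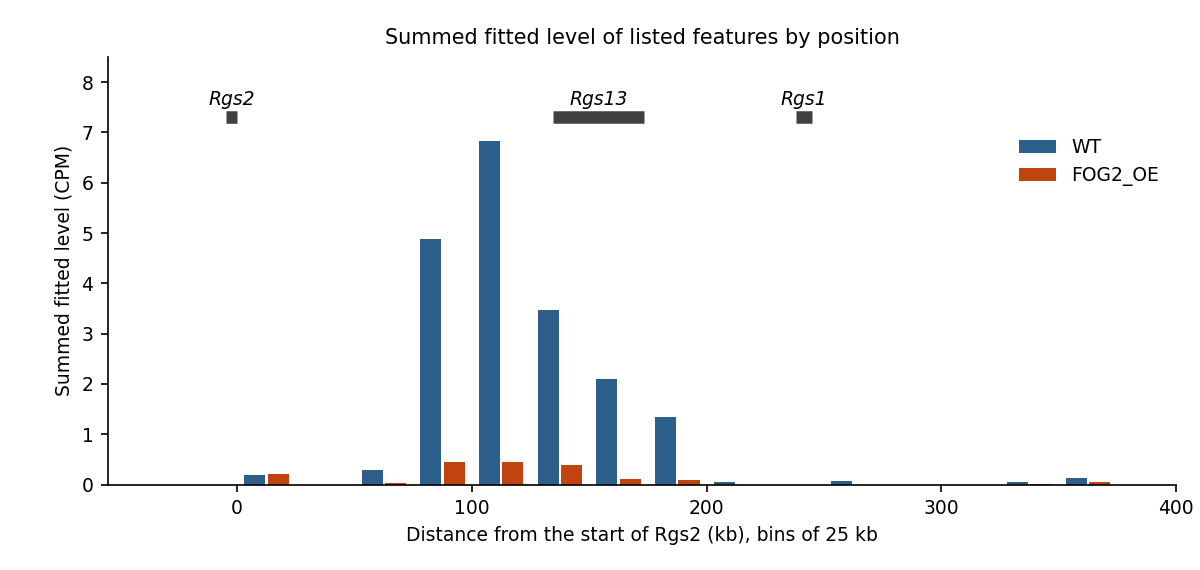
Summed fitted level (CPM) of the listed features in bins of 25 kb from the start of Rgs2, WT in blue and FOG2_OE in red, with reads spread evenly over each feature; bins without a bar hold no listed feature. The WT level was highest at 6.84 CPM in the bin from 100 to 125 kb, where FOG2_OE stood at 0.449 CPM.

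Along the block the reduction was of like size from bin to bin while the level changed. In bins of 25 kb from 50 to 200 kb past the Rgs2 start, the WT sum ran from 0.285 to 6.84 CPM. The ratio of WT to FOG2_OE in the same bins ran from 9.16 to 18.0. Over the 21 block features with a mean of at least 10 fitted reads per library, the log2 fold change by the authors' deposited table correlated with position at r = -0.30 (Spearman -0.41), a description across features that share libraries. All 21 were called lower, from -4.81 to -2.41. For 20 of the 21 the 95% interval contained their median of -3.82, and for 1, MSTRG.4441, it lay above. The solved SE ran from 0.56 to 2.59 over the block, so that differences between its features were mostly smaller than their error.

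**Figure D3:**
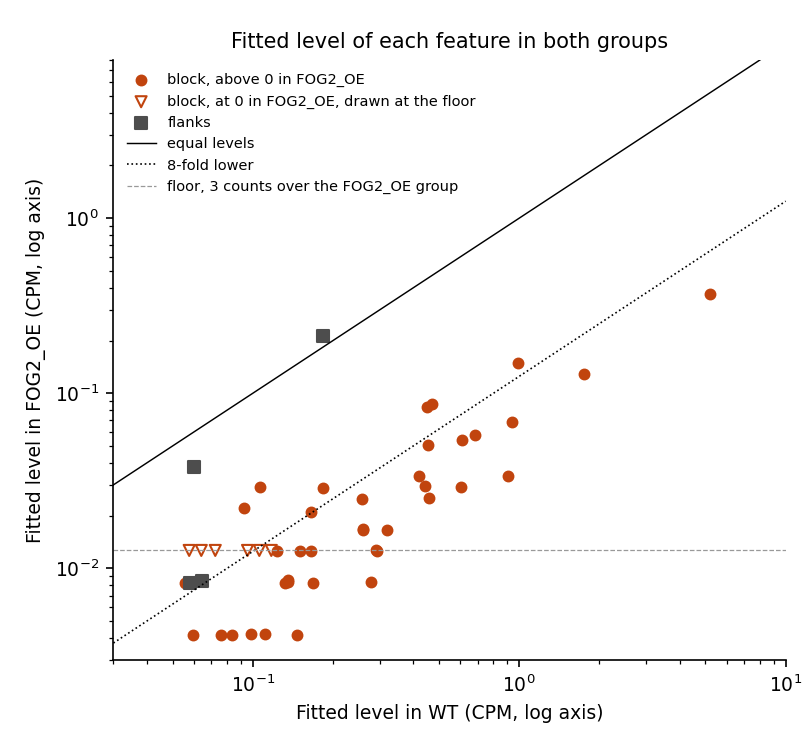
Fitted level in FOG2_OE against fitted level in WT (CPM, log axes) for each of the 49 features; the solid line marks equal levels and the dotted line 8-fold lower. The 6 block features at 0 in FOG2_OE are drawn as open triangles at the floor of 3 counts over the group (0.0127 CPM), and MSTRG.4418 beside Rgs2 lies by the line of equal levels.

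Per length, the block's features were alike in WT. Their level ran from 0.204 to 0.700 CPM per kb in WT with a median of 0.421, which was also the median of all features of the table. In FOG2_OE the block ran from 0 to 0.153 CPM per kb with a median of 0.0264, against a median of 0.357 for all features. At MSTRG.4418 the level per length was 0.397 CPM per kb in WT and 0.458 in FOG2_OE. The most abundant feature MSTRG.4446 thus owed its rank to its length, with 0.517 CPM per kb in WT and 0.0364 in FOG2_OE.

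**Figure D4:**
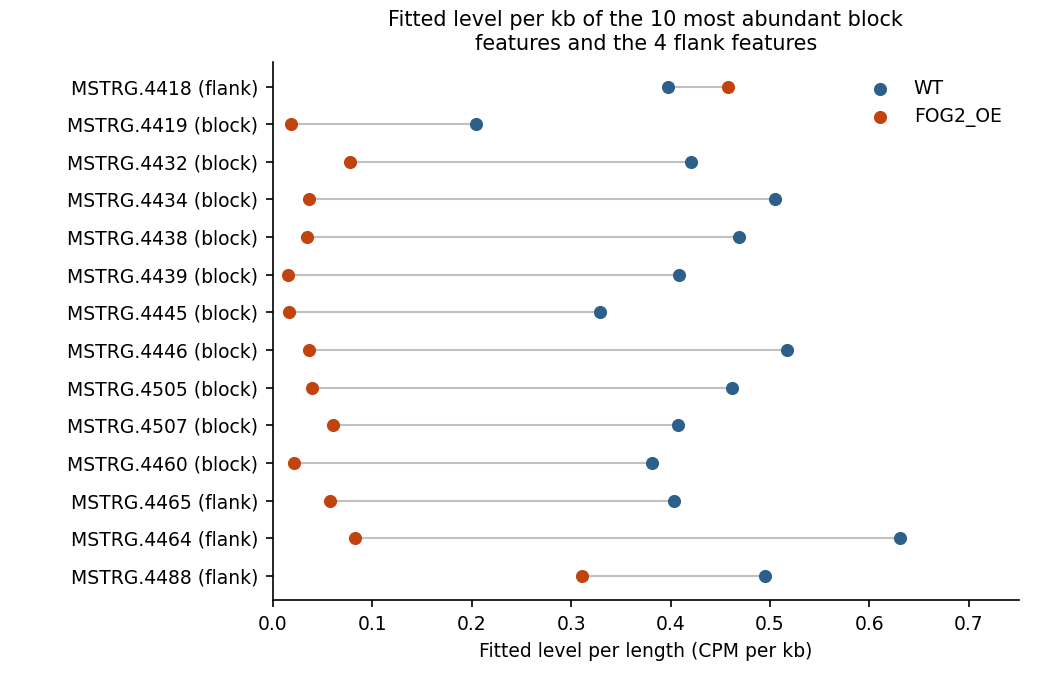
Fitted level per length (CPM per kb) in WT (blue) and FOG2_OE (red) of the 10 block features with the highest WT level and of the 4 flank features, in genome order from the top. The 10 block features stand between 0.204 and 0.517 in WT and between 0.0152 and 0.0774 in FOG2_OE.

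The 7 block features that were not called were scarce. Their mean fitted reads per library ran from 2.47 to 8.20 with a median of 4.45, and those of the 38 called features had a median of 10.8. Their log2 fold changes by the authors' deposited table were -3.89 to -1.81, with adjusted p from 0.0543 (MSTRG.4448) to 0.382 (MSTRG.4435). In all, 22 of the 45 features had no more than 3 counts over the FOG2_OE libraries, 6 of them 0. With those 6 placed at their bound, the median log2 ratio of the block was -3.76. The other 23 features were 3.64-fold to 26.9-fold lower.

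At the left edge of the block, a gap of 72.8 kb without a listed feature separated MSTRG.4418, at 0.20, from the first 3 block features by the authors' deposited table. Those were MSTRG.4419 (144077763 to 144080747), MSTRG.4421 and MSTRG.4432, at log2 fold changes of -3.46, -4.11 and -2.42 there. MSTRG.4419 fell from 0.608 to 0.0540 CPM (SE 0.63, adjusted p = 1.6e-06 by the authors' deposited table). At the right edge a gap of 72.8 kb followed MSTRG.4459, and the 3 features past it were MSTRG.4465, MSTRG.4464 and MSTRG.4488. Their fitted levels were 0.00825, 0.00844 and 0.0379 CPM in FOG2_OE and 0.0580, 0.0644 and 0.0604 CPM in WT. Their log2 fold changes by the authors' deposited table were -2.60, -2.72 and -0.65 (SE 1.50, 1.32 and 1.01), with adjusted p of 0.294, 0.149 and 0.804. In the flanks 0 features were called in either direction in the authors' likelihood ratio test, and 1, MSTRG.4464, had an unadjusted p under 0.05 (p = 0.0153 by the authors' deposited table). The intervals of MSTRG.4465 and MSTRG.4464 reached past the median of the block, so that the right end of the reduction is not fixed by these counts.

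All 49 features were listed on the plus strand, opposite to all 3 genes. The kit that the labels name does not keep strand, and how strands were assigned is not given in the sources used here. The listed strand is therefore no measurement of the strand of the RNA. Of all listed features 51.0% were on the plus strand, and 91.1% of 21353 neighbouring pairs less than 5 kb apart were listed on the same strand. The 45 block features covered 22.4% of its 201 kb, with a median gap of 1181 bases and a median length of 464 bases. Whether they are pieces of fewer, longer transcripts was not tested, and they are not to be counted as separate observations.

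Elsewhere in the genome, 1 feature of the other RGS genes was called. Features were assigned to the gene they overlap, and those over no gene to the one with the closest start, up to 100 kb away. The list of 23 RGS family genes also holds Rgs7bp (1 feature, not called) and Rgs9bp (0 features), for proteins that bind RGS proteins. Of the 23 genes, 10 had linked features outside the region, 30 in all, of which 1 was called lower and 0 higher by the authors' deposited table. That is 3.33% lower, near the 4.65% of all features, and the median log2 fold change was -0.46 against -0.21. The called one was MSTRG.20048, 51.0 kb from the start of Rgs6, whose product attenuates vagal signalling in the atrium. It stood at 0 in FOG2_OE and 0.0464 CPM in WT, with an adjusted p of 0.0461 by the authors' deposited table and of 0.0656 with the median ratio of all features centred at 1. Features of Rgs3 (11), Rgs19 (4) and Rgs5 (1), a gene of pericytes and smooth muscle, had medians of -0.46, 0.28 and 0.75 by the authors' deposited table, with none called. RGS genes without a linked feature were not measured.

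Lists of receptors, G proteins, and effectors and kinases gave calls at a few loci. The list of effectors and kinases also holds Gucy1a1 and Npr1, guanylyl cyclases that are not G protein effectors. Among 14 receptors, 63 features of 6 genes gave 9 lower (14.3%) and 0 higher calls by the authors' deposited table, against 4.65% and 1.16% of all features, with a median log2 fold change of 0.06. Of these, 8 belonged to Adra1b, the alpha-1B adrenergic receptor, which signals through Gq, and MSTRG.12665, 16.5 kb from its start, fell from 6.65 to 0.576 CPM (log2 fold change -3.52, SE 0.35, by the authors' deposited table). The other call was MSTRG.55336, 73.6 kb from the start of S1pr1, a receptor for sphingosine 1-phosphate. The muscarinic receptor gene Chrm2, of the vagal response, had 10 features and the beta-1 adrenergic receptor gene Adrb1 had 8, with none called by the authors' deposited table. Among 19 G protein genes, 45 features gave 2 lower calls (Gnao1) and 1 higher call (Gnai2) by the authors' deposited table. These are 4.44% lower and 2.22% higher, and the lower share is near that of all features. The higher one, MSTRG.87621, went from 0.00431 to 0.115 CPM, with 1 WT count in all. Among 20 effectors and kinases, 28 of 96 features were called lower (29.2%, against 4.65% of all features) and 1 higher (1.04%, against 1.16%) by the authors' deposited table. Of the lower ones 18 were linked to Gucy1a1, for a subunit of the nitric oxide receptor guanylyl cyclase, 9 to the potassium channel gene Kcnj3 and 1 to Adcy5, so that these calls rest on 3 loci. Every called feature of the receptor, G protein, and effector and kinase lists lies outside its linked gene or is listed antisense to it. Over all 96 effector and kinase features the median log2 fold change was -1.53 by the authors' deposited table, against -0.21 for all features. Features of 1 locus lie close together and are not separate observations.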

How the data were processed

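Levels were measured by RNA-seq of ribosomal RNA- and poly(A)-depleted RNA with a TruSeq RNA v2 kit, per the labels' protocols. The submitters' processing notes name STAR, HTSeq 0.6.0, edgeR, deepTools and mm10 without roles; the assembler is not given in the sources used here. The authors deposited, per feature, a log2 fold change, a log2 CPM, a likelihood ratio (a score), and p-values with Benjamini-Hochberg adjustment over 34518 rows. Per the file headers there are also 6 sample columns, which were constant multiples of each other within a group (largest relative spread 1.8e-14) and so were read as fitted values, not counts. Count tests, replicate spread and left-out replicates were therefore not possible.

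Effective library sizes came from 788 features above 300 fitted reads in both groups. The negative binomial dispersion was solved from each likelihood ratio of at least 0.1 and gave the SE. The procedure was tested on simulated data. Positions count from 1: of 102 symbols also in RefSeq, 96 had a deposited start 1 lower. Genes are from GENCODE M21. GC content, repeats and motifs of the features themselves were not analysed here. Floors and counting intervals (exact binomial, 95%) cover counting error only. Calls were recomputed at an adjusted p of 0.01, with the median ratio centred at 1, with F reference distributions of 10 and 4 residual degrees of freedom, and over features with a mean of at least 10 fitted reads; intervals also by feature midpoint. Named features are those over or nearest to the 3 genes, the 10 most abundant of the block, those of the flanks, 3 on each side of each edge, and called RGS family features; other pathway features and MSTRG.4441, MSTRG.4448, MSTRG.4435 were named after their values were seen. The region, the lists and this rule were chosen with earlier results of these data known. Computation used scipy 1.17.1, numpy 2.4.6 and pandas 2.3.3 under Python 3.11.15.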

Additional observations from a re-analysis of the deposited data

How the results depend on the processing

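The number of calls in the block depended on the reference distribution. The direction of the block was set when it was chosen by its fold changes, so that it was not tested here. The alternatives reuse the same fold changes or fitted levels, moved by a constant on the centred scale. The 38 lower calls of the region, all in the block, became 12 under an F reference with 10 residual degrees of freedom (1.07% of all features were then called lower). They became 0 with 4 residual degrees of freedom, where 0 of all 34518 features passed, and 39 region features had an unadjusted p under 0.05. The counts were 21 over features with a mean of at least 10 fitted reads, where fewer features were tested, 29 at an adjusted p under 0.01 and 37 on the centred scale. Of 32 named features of the region, MSTRG.4510 lost its call on the centred scale (adjusted p = 0.0693), as did MSTRG.20048 near Rgs6 outside it (adjusted p = 0.0656). The block's log2 ratio of sums, -3.66, was -3.44 on the centred scale and -3.60 without MSTRG.4446. That of the flanks, -0.46, was -1.74 without MSTRG.4418 and 0.20 with only the features of at least 10 fitted reads, which leaves that 1 feature. No paired analysis was possible because the sample columns hold fitted values and not counts, and for the same reason no replicate could be left out and no other count test run. The minus strand gave no value, since no member is listed on it.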

Other observations

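None of the nearest listed features beyond the region was called, and the intervals of some reached into the range of the block. On the left, MSTRG.4416 and MSTRG.4414, 267 and 269 kb from the block, had log2 fold changes of 0.30 and -0.51 (SE 0.74 and 0.61) in the authors' deposited table. Also to the left, MSTRG.4425, MSTRG.4424 and MSTRG.4411, lie within or beside Trove2, which encodes an RNA-binding protein, 324 to 327 kb from the block. They had values of -1.81, -1.21 and -1.40 in the authors' deposited table, with adjusted p of 0.180, 0.549 and 0.189. On the right the next listed feature was MSTRG.4494, 833 kb from the block, at 0.106 CPM in WT and 0.103 CPM in FOG2_OE. Rgs21 and Rgs18, the next RGS genes on that side, lay in the stretch without listed features.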
